A study of Arabidopsis thaliana with 8 samples.

Results

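Plant cells keep a genome in their mitochondria, and pieces of it have been copied into nuclear chromosomes during evolution. The copy examined here is a large insertion of mitochondrial DNA near the centromere of chromosome 2 of Arabidopsis thaliana. The genes of the mitochondrial genome encode core subunits of the respiratory chain, of ATP synthase, of the cytochrome c maturation machinery and of the mitochondrial ribosome, and their transcripts undergo C-to-U editing. Because the nuclear copies are nearly identical to their templates, a read from such a gene can fit both genomes.

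The members were the loci of the deposited table numbered from AT2G07667 to AT2G07815, leaving out AT2G07690 (MCM5). There were 134 of them among the 9998 loci that were read. Values were given for 90, and 61 of these had a count in at least 1 library, whereas 29 stood at 0 in all libraries. RNA came from whole seedlings grown for 11 days at 22 °C on MS medium with 16 h of light and 8 h of dark. The 4 genotypes were the wild-type Col0, the single mutant sr45, the double mutant sap18sr45 and the triple mutant asap, which carries mutant alleles of SAP18, SR45 and ACINUS, the subunits of the ASAP complex, a nuclear complex that works in messenger RNA splicing. All 3 mutants share the sr45 T-DNA allele, the alleles of the other subunits are T-DNA insertions too, and each genotype had 2 libraries. The labels do not say whether these came from separate cultures, so p-values measure only the spread between libraries, which may be technical. Since whole seedlings were used, fewer cells of a type and less RNA per cell cannot be told apart.

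Library totals over the loci used ran from 1295244 counts in sr45 replicate 1, the shallowest library, to 4052420 in Col0 replicate 1. In CPM, the count scaled to the library total, 3 counts thus corresponded to between 0.74 and 2.32. The loci used were the 9536 with values in the part of the deposited data read, 8046 of chromosome 1 and 1490 of chromosome 2. Each CPM and each share of a library is relative to these totals, and not to all genes. SR45 (AT1G16610), the gene mutated in all 3 lines, had cRPKM values of 24.24 and 21.00 in Col0, 6.62 and 4.99 in sr45, 13.59 and 14.38 in sap18sr45, and 6.23 and 3.85 in asap. Here cRPKM is a read count per kilobase of mappable positions, scaled to the mapped reads of the library. All 6 mutant libraries lay below both Col0 libraries, with sap18sr45 the least reduced. The 6 leaf markers, the RuBisCO small subunit and antenna and photosystem I genes, held between 12.0% and 14.0% of every library's counts over the loci used. SAP18 and ACINUS were not analysed here.

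The numbering of the loci did not quite follow the insertion. A match of chromosome 2 to the Col-0 mitochondrial genome placed the insertion at chr2:3239038-3509765 (TAIR10.1), a stretch of 270728 bases of which 99.6% aligned, with a mean identity of 99.9%, to 72.2% of the mitochondrial genome. Of the 134 members, 119 lay inside this stretch: 57 were annotated as protein-coding, 41 as pseudogenes and 21 as tRNA genes. The other 15 lay beyond its edges and are ordinary nuclear loci. Among these 15, 12 were at 0 in all libraries and 3 had counts, namely ATMRP11 (AT2G07680), an ABC transporter gene, with 1295 counts over all libraries, the RNA helicase gene RH33 (AT2G07750) with 2, and AT2G07730 with 1. Values were given for 75 loci inside the insertion, and 58 of them had counts. MCM5, a subunit of the replicative DNA helicase, also lies outside the insertion, at chr2:3522984-3527500.

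**Figure D1:**
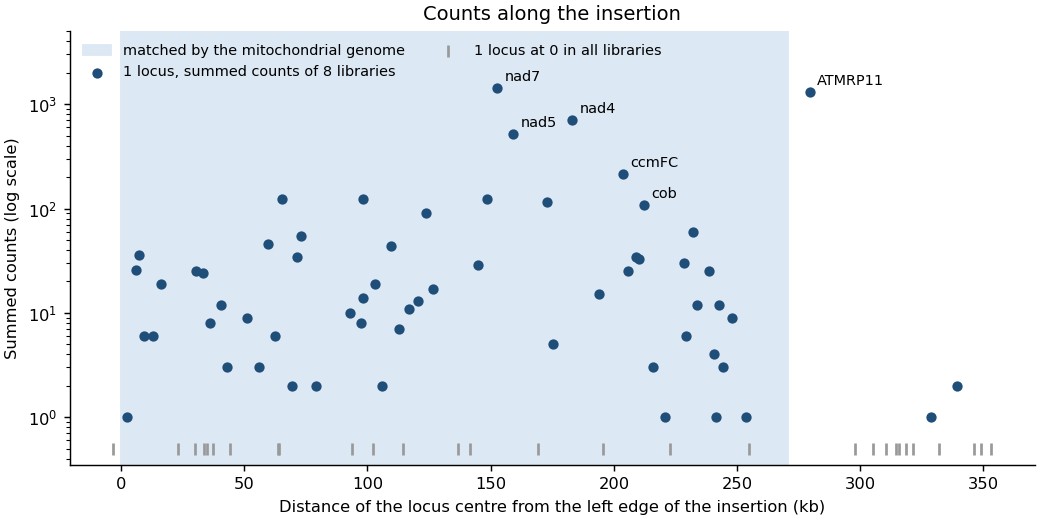
Summed counts of the 8 libraries (log scale) for each of the 90 members with values, by the distance in kb of the locus centre from the left edge of the insertion; the shaded part is matched by the mitochondrial genome, and grey ticks are loci at 0 in all libraries. The copies of nad7, nad4 and nad5 had the most counts inside, and ATMRP11, with 1295 counts, lies outside the right edge.

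How far reads from the 2 genomes can be separated was seen from the sequences. Of 136364 windows of 50 bases in the loci inside the insertion, 4390 (3.22%) did not occur in the mitochondrial genome. Stretches of 60 bases from 5 loci are shown because the comparisons below turn on these loci. The nuclear and mitochondrial copies are given 5′ to 3′ on the strand of the locus, and capitals mark bases that differ between the copies.
COX3 nuclear: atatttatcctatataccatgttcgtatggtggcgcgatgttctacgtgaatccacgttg
COX3 mitochondrial: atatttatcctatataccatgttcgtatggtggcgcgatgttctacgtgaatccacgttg
MT-CYB nuclear: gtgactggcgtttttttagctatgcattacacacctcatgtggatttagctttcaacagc
MT-CYB mitochondrial: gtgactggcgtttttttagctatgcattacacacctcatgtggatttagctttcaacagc
AT2G07711 (nad5) nuclear: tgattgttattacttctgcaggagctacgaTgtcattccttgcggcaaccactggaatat
AT2G07711 (nad5) mitochondrial: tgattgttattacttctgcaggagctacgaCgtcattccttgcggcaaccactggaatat
AT2G07709 (nad7) nuclear: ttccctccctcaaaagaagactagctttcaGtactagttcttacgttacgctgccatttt
AT2G07709 (nad7) mitochondrial: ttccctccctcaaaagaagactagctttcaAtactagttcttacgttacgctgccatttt
AT2G07717 (nad4) nuclear: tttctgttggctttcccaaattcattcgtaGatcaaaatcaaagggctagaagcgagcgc
AT2G07717 (nad4) mitochondrial: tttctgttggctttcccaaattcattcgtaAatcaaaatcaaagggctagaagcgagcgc

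On chromosome 2 of TAIR10.1 these stretches lie at chr2:3312442-3312501 (minus strand) for COX3, chr2:3451013-3451072 (plus) for MT-CYB, chr2:3397697-3397756 (minus) for AT2G07711, chr2:3390463-3390522 (plus) for AT2G07709 and chr2:3420862-3420921 (plus) for AT2G07717. COX3 (AT2G07687), the copy of the gene for subunit III of cytochrome c oxidase, had 949 windows of 50 bases and none outside the mitochondrial genome, and neither had MT-CYB (AT2G07727), the copy of the cytochrome b gene, in 3194 windows. This held for windows of 100 and 150 bases as well. For AT2G07711, 100 of 2237 windows were particular to the nuclear copy, for AT2G07709 300 of 6121, and for AT2G07717 345 of 7864. Of the 58 loci with counts inside the insertion, 27 had no such window. Windows were compared with mitochondrial DNA and not with edited transcripts. In AT2G07711 the base shown differs as nuclear T against mitochondrial C, the change that C-to-U editing makes. Whether this base is edited was not tested.

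The deposited values nevertheless assigned mappable positions to these loci. The ratio of counts to cRPKM, scaled on 3679 well-counted genes, corresponded to about 224 mappable positions for COX3, 320 for MT-CYB, 987 for AT2G07711, 5685 for AT2G07709 and 5196 for AT2G07717. In 57 of the 58 loci these positions outnumbered the windows that separate the nuclear from the mitochondrial copy. The origin of the counted reads, from chromosome 2 or from mitochondria, therefore cannot be told apart from these values. Loci of the mitochondrial genome itself were not among those read. A level below is that of the locus as counted.

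Summed over the 75 loci inside the insertion, the members' level was 131 and 143 CPM in Col0, 463 and 127 in sr45, 196 and 188 in sap18sr45, and 279 and 257 in asap. One library, sr45 replicate 1, stood above all others, while its partner was the lowest of the 8. The 2 libraries of sap18sr45 and those of asap lay above both Col0 libraries, with no overlap between these 3 genotypes. The ratio of replicate 1 to replicate 2 was 3.64 in sr45, with an exact 95% interval of 3.16 to 4.20 that covers counting error only. It was 0.916 (0.802 to 1.05) in Col0, 1.04 (0.926 to 1.17) in sap18sr45 and 1.08 (0.969 to 1.21) in asap. Over all 90 members with values, including those outside the insertion, the sr45 ratio was 2.83 (2.51 to 3.20).

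**Figure D2:**
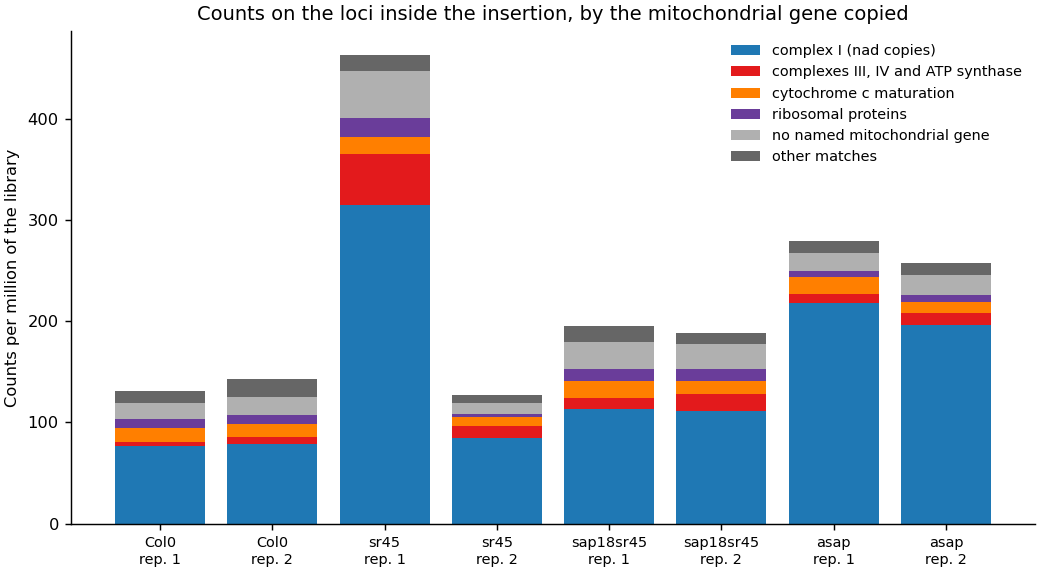
CPM of each library on the 75 loci inside the insertion, stacked by the mitochondrial gene that the locus copies. sr45 replicate 1 reaches 463 and sr45 replicate 2 127, and the part of complex I copies is 77.2 and 79.2 in Col0 and 218 and 196 in asap.

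The difference between the sr45 libraries was seen in loci with and without windows that separate the 2 genomes, but not to the same extent in all classes. The 27 counted loci without a separating window, among 38 with values, stood at 79.5 CPM in replicate 1 and 17.3 in replicate 2, a ratio of 4.59 (3.16 to 6.79). The 31 counted loci with some such window, among 37 with values, stood at 384 and 110.0, a ratio of 3.49 (2.99 to 4.07). For the 63 loci inside that had too few counts to be tested, the sums were 83.4 and 18.6 CPM, and 25 of them had a count in replicate 1 against 18 in replicate 2, although replicate 1 was the shallower library. The 15 loci outside the insertion differed less, with a ratio of 1.13 (0.854 to 1.48). In the sr45 libraries only 1 of these 15, ATMRP11, had counts, so this ratio is that of 1 gene. MCM5 had 48.6 and 47.2 CPM. Inside the insertion, the loci copying cytochrome c maturation genes had a ratio of 1.87, whose interval of 0.980 to 3.57 includes 1, whereas those copying complex I genes had one of 3.71 (3.12 to 4.42).

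Enough counts to be tested were found in 13 members, 12 inside the insertion and ATMRP11. In sr45 all 13 were higher in replicate 1 than in replicate 2, where 47.8% of all 5261 genes tested were. More than 2-fold separated the libraries in 9 of the 13, against 6.58% of all genes. COX3 and AT2G07785, included in both numbers, had enough counts to be tested only through sr45 replicate 1 and 1 sap18sr45 library. Their place in this comparison was thus partly fixed by the library that was high. In Col0, 5 of 13 were higher in replicate 1 (48.5% of all genes) and 0 were more than 2-fold apart (1.88%). In sap18sr45 the counts were 5 (50.1%) and 2 (2.38%), and in asap 7 (48.2%) and 2 (7.24%). The median log2 ratio of replicate 1 to replicate 2 in sr45 was 1.85 over the members and -0.02 over all genes.

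**Figure D3:**
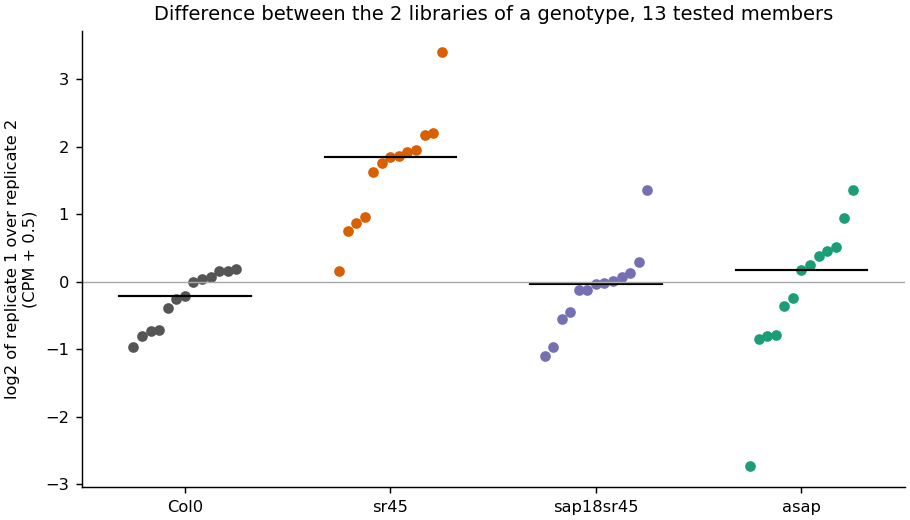
Log2 ratio of replicate 1 to replicate 2 in CPM, with 0.5 added, for the 13 tested members in each genotype; each point is 1 member and each line the median. All 13 points of sr45 lie above 0, around a median of 1.85, and the smallest is ATMRP11, outside the insertion. COX3 and AT2G07785 had enough counts to be tested only through sr45 replicate 1 and 1 sap18sr45 library.

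Other measures that could move with these libraries were set beside this. The 6 leaf markers took 14.0% of the counts in sr45 replicate 1 and 13.9% in replicate 2. The 5 root markers summed to 16.2 and 22.1 CPM. Loci of structural RNAs elsewhere in the table (tRNA, rRNA, snRNA and snoRNA, 26 with values) summed to 37.1 and 31.6. The 26 nuclear genes of the respiratory chain summed to 2359 and 2345 CPM. None of these sums showed the more than 3-fold gap of the insertion. The depth of the 2 libraries, 1295244 and 2309239 counts, did differ, and its part in the result was not tested.

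By the gene copied, loci of complex I, the NADH dehydrogenase that feeds electrons into the respiratory chain, held most counts: 2831 over 9 loci, of 4316 inside the insertion. Their sums were 77.2 and 79.2 CPM in Col0, 315 and 84.9 in sr45, 113 and 111 in sap18sr45, and 218 and 196 in asap. Every mutant library was thus above both Col0 libraries, sr45 replicate 2 by the least. The locus copying cob stood at 1.48 and 1.83 in Col0, 21.6 and 5.20 in sr45, 3.86 and 7.99 in sap18sr45, and 3.77 and 4.94 in asap, and the 2 loci copying ATP synthase genes at 1.73 and 3.30, 17.8 and 3.46, 4.37 and 4.79, and 4.72 and 4.18. In both of these classes, too, every mutant library was above both Col0 libraries, but on few counts. The cob locus had 6 and 5 counts in Col0, 28 and 12 in sr45, 15 and 20 in sap18sr45, and 8 and 13 in asap. The ATP synthase loci had 7 and 9, 23 and 8, 17 and 12, and 10 and 11. Their exact interval in Col0 replicate 2, 0.000151% to 0.000627% of counts, held every mutant library except sr45 replicate 1. In the same Col0 library the cob interval, 5.95e-05% to 0.000428%, held sap18sr45 replicate 1 and asap replicate 1. The complex I interval there, 0.00690% to 0.00905%, held sr45 replicate 2. For the libraries that these intervals held, the order against Col0 lies within counting error. In the next 3 classes, not every mutant library was above both Col0 libraries. The 5 loci copying ribosomal protein genes stood at 8.88 and 9.17 in Col0, 18.5 and 3.46 in sr45, 11.8 and 12.0 in sap18sr45, and 6.61 and 6.83 in asap. The 5 loci copying cytochrome c maturation genes stood at 13.6 and 13.2 in Col0 and 17.0 and 9.09 in sr45. They stood at 16.5 and 12.4 in sap18sr45 and 17.0 and 10.3 in asap. The 41 loci that match no named mitochondrial gene stood at 15.5 and 17.6 in Col0 and 46.3 and 10.8 in sr45. Their sums were 27.3 and 24.8 in sap18sr45, above both Col0 libraries, and 17.0 and 19.7 in asap. In these last 2 classes the asap and Col0 libraries overlapped. The remaining 11 loci, with other matches such as tRNA genes, stood at 12.1 and 17.6 in Col0 and 16.2 and 7.79 in sr45. They stood at 15.9 and 10.4 in sap18sr45 and 11.8 and 12.1 in asap, with no mutant library above both Col0 libraries.

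AT2G07711, a transcribed pseudogene at chr2:3397149-3399434 (minus strand) that copies part of nad5, a membrane subunit of complex I, differed most clearly between genotypes. Its cRPKM values were 3.69 and 3.24 in Col0, 11.87 and 6.42 in sr45, 6.19 and 5.91 in sap18sr45, and 20.54 and 15.47 in asap. All 6 mutant libraries were above both Col0 libraries, and asap was above all others. The asap mean of 18.0 ± 3.59 against 3.46 ± 0.32 (SD, n = 2 each) corresponded to a log2 fold change of 2.19 ± 0.28 (SE; edgeR adjusted p = 1.83e-07). In sr45 the log2 fold change was 1.31 ± 0.31 (edgeR adjusted p = 0.0018), but 0.87 with an adjusted p of 0.0744 without sr45 replicate 1. In sap18sr45 it was 0.74 ± 0.30 and did not pass the threshold (edgeR adjusted p = 0.0701). The locus took 8.29% and 6.67% of the counts inside the insertion in Col0, 21.7% and 17.7% in asap, 7.50% and 14.6% in sr45, and 9.20% and 9.13% in sap18sr45.

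The other large copies of complex I genes did not pass the threshold in the fit of all 8 libraries. AT2G07709 (chr2:3388547-3394716, plus strand), a copy of nad7, which encodes a subunit of the peripheral arm of the complex, had the most counts of all members. Its cRPKM values were 2.70 and 3.07 in Col0, 8.15 and 2.38 in sr45, 3.55 and 3.51 in sap18sr45, and 5.10 and 5.93 in asap. Both asap libraries were above both Col0 libraries, yet the log2 fold change of 0.78 ± 0.54 had an edgeR adjusted p of 0.288. AT2G07717 (chr2:3418229-3426141, plus strand), a copy of nad4, a membrane subunit, had cRPKM values of 1.10 and 0.95 in Col0, 6.66 and 1.44 in sr45, 1.80 and 1.83 in sap18sr45, and 3.81 and 2.71 in asap. Its mutant libraries were likewise all above those of Col0, with log2 fold changes of 1.85 ± 0.76 in sr45 and 1.49 ± 0.74 in asap (edgeR adjusted p = 0.143 and 0.158). Fitted with only the 4 libraries of Col0 and asap, both loci passed (adjusted p = 0.00138 and 0.000272), a fit that leaves out the spread of the other 2 genotypes. AT2G07717 also passed in sap18sr45 with only 4 libraries (0.00213), in sr45 with DESeq2 (0.0372) and without sr45 replicate 2 (5.39e-08), and in asap with limma on log2(cRPKM + 0.1) (0.0477). With the replicate block it passed in sr45 and asap (0.00394 and 0.00556). AT2G07709 passed in sr45 without sr45 replicate 2 (2.7e-06).

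AT2G07785, a coding locus at chr2:3348003-3348904 (plus strand) that copies part of nad1, was at 0 counts in both Col0 libraries. It had 12 counts and 1 count in the sr45 libraries, 12 and 11 in those of sap18sr45, and 6 and 2 in those of asap. Against a floor of 3 counts over the Col0 group, its CPM was at least 8.15-fold higher in sr45, at least 8.13-fold higher in sap18sr45 and at least 3.80-fold higher in asap. It entered the test only through mutant libraries, and passed the edgeR threshold in all 3 comparisons (adjusted p = 0.00928, 0.00953 and 0.0463). The calls were lost in 5 of 11 alternatives in sr45, 5 of 13 in sap18sr45 and 5 of 12 in asap. Those in sr45 and asap held without replicate 2 of the mutant, but not without other libraries. The sr45 call was lost without sr45 replicate 1, Col0 replicate 1 or Col0 replicate 2 (edgeR adjusted p = 0.436, 0.109 and 0.0667), and the asap call without asap replicate 1, Col0 replicate 1 or Col0 replicate 2 (0.177, 0.213 and 0.145). Without sap18sr45 replicate 1, sap18sr45 replicate 2, Col0 replicate 1 or Col0 replicate 2 the adjusted p for sap18sr45 lay between 0.0503 and 0.146.

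**Figure D4:**
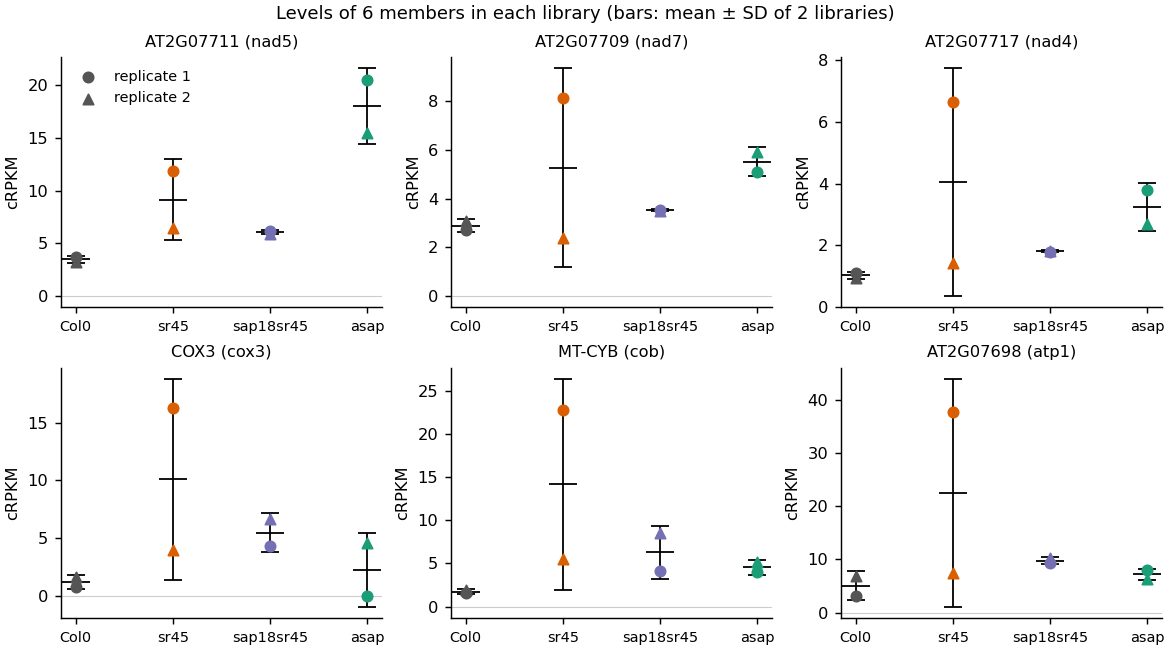
cRPKM of 6 members in each library (circles, replicate 1; triangles, replicate 2), with the mean and SD of the 2 libraries of each genotype. The asap libraries of AT2G07711, 20.54 and 15.47, lie above all others, whereas for COX3, MT-CYB and AT2G07698 the sr45 replicate 1 library lies apart.

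Copies of the genes for the later respiratory complexes were high in sr45 replicate 1. COX3 (chr2:3311654-3312651, minus strand; the locus also overlaps the copy of sdh4) had 2 and 3 counts in Col0, 14 and 6 in sr45, 11 and 11 in sap18sr45, and 0 and 8 in asap, or cRPKM values of 0.74 and 1.64, 16.25 and 3.94, 4.28 and 6.65, and 0.00 and 4.54. MT-CYB (chr2:3449534-3452776, plus strand) had cRPKM values of 1.55 and 1.92 in Col0, 22.81 and 5.53 in sr45, 4.10 and 8.49 in sap18sr45, and 3.96 and 5.17 in asap. AT2G07698 (chr2:3361463-3364127, plus strand), which copies atp1, the gene for the alpha subunit of ATP synthase, had 3.11 and 6.95 in Col0, 37.61 and 7.40 in sr45, 9.32 and 10.22 in sap18sr45, and 7.95 and 6.39 in asap. In each, sr45 replicate 1 was at least 2 times as high as any other library, and sr45 replicate 2 lay above both Col0 libraries. For AT2G07698 the latter rested on 8 counts in sr45 replicate 2 and 9 in the deeper Col0 replicate 2, a difference within counting error. COX3 rose in sr45 by a log2 fold change of 2.94 ± 1.01, MT-CYB by 2.89 ± 0.70 and AT2G07698 by 2.06 ± 0.71 (edgeR adjusted p = 0.0264, 0.00212 and 0.0278). The COX3 call was lost in 6 of 11 alternatives, that of AT2G07698 in 7 of 12 and that of MT-CYB in 2 of 13. In sap18sr45 and asap none of the 3 passed. MT-CYB came closest in sap18sr45, with a log2 fold change of 1.74 ± 0.72 (edgeR adjusted p = 0.0746).

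In all, 5 of the 13 tested members were higher in sr45 than in Col0 (AT2G07687, AT2G07698, AT2G07711, AT2G07727 and AT2G07785), where 15.2% of all genes tested were called higher. The count filter asked for about 3.89 CPM in 2 libraries of any genotype, and 4 of these 5, all but AT2G07711, met it in mutant libraries only, so the filter favoured loci that are high in mutants and the share is no evidence about the members. Of the 9 tested members with a Col0 library at that level, 1 was called. None was called lower, where 16.5% of all genes were; at an unadjusted p under 0.05, 1 of the 13 was lower, and DESeq2 called 0 lower and 3 higher. The call of all 5 was lost without sr45 replicate 1: 0 of 15 tested members were then higher (11.8% of all genes), and AT2G07715, a copy of the ribosomal protein gene rpl2, was lower with a log2 fold change of -2.89 (edgeR adjusted p = 0.0356). Without sr45 replicate 2, 9 of 20 were higher (11.7%). Without Col0 replicate 1, 1 of 20 was higher (8.79%), and without Col0 replicate 2, 2 of 21 (9.30%).

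In sap18sr45 only AT2G07785 was called higher among the 13, against 12.9% of all genes, and none was called lower, against 14.2%; at an unadjusted p under 0.05, 4 were higher and 0 lower, and DESeq2 called 1 higher and 0 lower. In asap 2 of 13, AT2G07711 and AT2G07785, were called higher, against 25.6% of all genes, and none lower, against 26.0%; at an unadjusted p under 0.05, 2 were higher and 0 lower, and DESeq2 called the same numbers. Without Col0 replicate 1 or Col0 replicate 2 only AT2G07711 was called, of 20 and 21 tested (16.1% and 17.5% of all genes were then higher). By the study's own rule, which asks for 50 counts, a cRPKM over 5 and a 2-fold change between each Col0 and each mutant library, no member qualified in sr45 or sap18sr45, where 1.54% and 0.965% of the genes that did were higher and 2.46% and 1.99% lower. In asap 2 members qualified, of which AT2G07711 was higher and none lower, against 6.81% and 5.23% of genes. The median log2 fold change of the 13 was 0.83 in sr45, 0.42 in sap18sr45 and 0.40 in asap, where those of all genes were -0.01, 0.01 and 0.01. The 3 comparisons share the Col0 libraries. Both mutant libraries were above both Col0 libraries in 7 of 13 members for sr45, 8 for sap18sr45 and 6 for asap, against 31.9%, 33.8% and 36.7% of all genes. They were below both in 1, 2 and 2 members, against 34.4%, 34.4% and 37.6%. These medians and counts include the 4 members that met the count filter in mutant libraries only. The filter favoured such loci, so neither is evidence about the members.

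**Figure D5:**
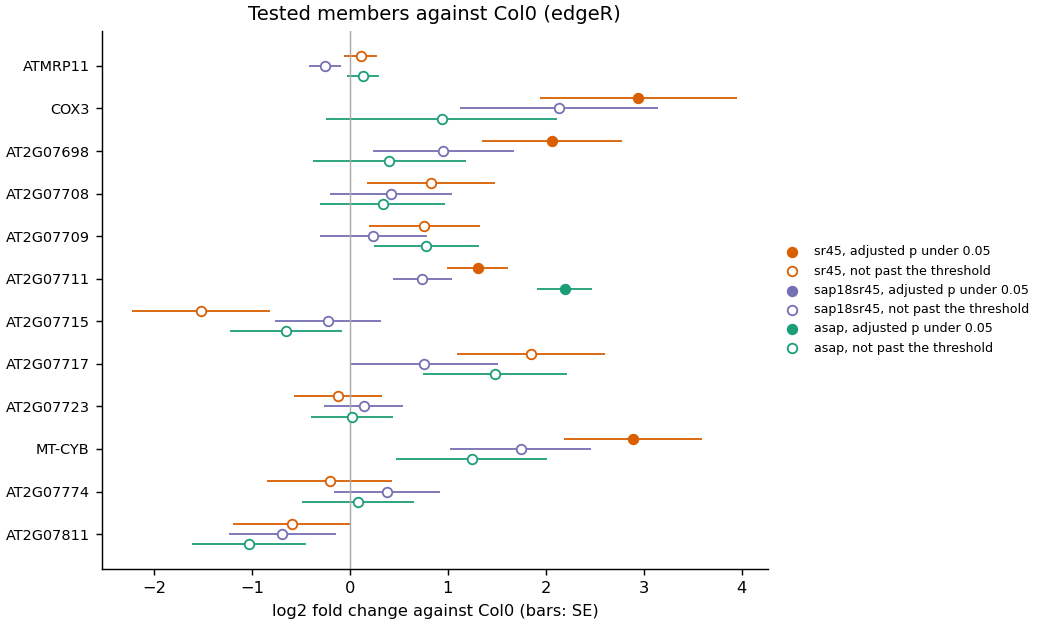
Log2 fold change against Col0 with its SE for 12 of the 13 tested members in each mutant (edgeR); filled points have an adjusted p under 0.05. AT2G07785 is left out because Col0 had no counts there. AT2G07711 is the only filled point of asap, at 2.19.

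The remaining tested members did not pass in any comparison. AT2G07715 (chr2:3410597-3413161) had cRPKM values of 1.70 and 1.48 in Col0, 1.10 and 0.21 in sr45, 1.48 and 1.34 in sap18sr45, and 0.78 and 1.44 in asap. It was the one member whose sr45 libraries both lay below those of Col0. AT2G07811, which lies on the strand opposite to the copy of nad2, had cRPKM values of 3.60 and 6.03 in Col0 and 3.16 and 2.08 in asap, and its log2 fold change of -1.03 ± 0.58 had an edgeR adjusted p of 0.144. The sources used here do not state if strand entered the counting, and reads of such a pair cannot be told apart. AT2G07723 copies ccmFC, a cytochrome c maturation gene, AT2G07774 covers the copy of a serine tRNA gene, and AT2G07708 matches no named gene; mean cRPKM over the 8 libraries was 3.01, 3.74 and 3.18. ATMRP11, outside the insertion, had cRPKM values between 3.53 and 5.55 in all libraries.

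Of the 46 counted loci inside the insertion that were not tested, 8 reached 10 counts in a library. AT2G07733, a copy of part of nad2, had 7 and 6 counts in Col0, 17 and 5 in sr45, 9 and 1 in sap18sr45, and 6 and 9 in asap. AT2G07747, which covers matR, the maturase gene within a nad1 intron, had 1 and 1, 11 and 1, 4 and 2, and 6 and 0. AT2G07726, a copy of ribosomal protein genes, had 1 and 4, 10 and 1, 11 and 4, and 1 and 1. In sr45, replicate 1 was the higher library for each of these 3. The other 5 were AT2G07731 (nad6), AT2G07783 (ccmFN1), AT2G07674, AT2G07776 and AT2G07686, with 25 to 46 counts over the 8 libraries.

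Few counts could give a high level. AT2G07671, a copy of atp9, the gene for the ring subunit of ATP synthase, had 2 and 3 counts in asap, 1 in Col0 replicate 1 and 0 in the other 5 libraries, but listed cRPKM values of 141.19 and 170.13 in asap and 36.85 in Col0 replicate 1, since only about 2 positions counted as mappable. With this locus included, the members made up 0.0775% of the summed cRPKM in asap and 0.0255% in Col0, where their shares of counts were 0.0341% ± 0.0022 and 0.0196% ± 0.00056 (SD, n = 2).

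Most loci next to the members in locus number had no counts. The list held 41 loci with values, the 20 on each side in order of locus number and MCM5. Between 34 and 37 of them were at 0 in each library, and only 2 were tested. Locus number does not follow position here. ATMRP11, which lies beyond the right edge of the insertion and had 1295 counts, is a member and was not in this list. MCM5 had cRPKM values of 3.64 and 2.68 in Col0, 6.06 and 5.93 in sr45, 5.52 and 4.41 in sap18sr45, and 7.20 and 5.45 in asap. It was higher in all 3 mutants, with log2 fold changes of 0.89 ± 0.22, 0.59 ± 0.21 and 0.81 ± 0.21 (edgeR adjusted p = 0.0026, 0.0386 and 0.00227). The call in sap18sr45 was lost in 7 of 13 alternatives, and those in sr45 and asap in 1 each. Its levels showed no gap between the sr45 libraries. The other flanking locus, AT2G09795, did not pass.

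The nuclear partners of the mitochondrial subunits were compared as background. Of 20 tested nuclear genes of the respiratory chain, 5 rose and 1 fell in sr45, 5 rose and 1 fell in sap18sr45, and 7 rose and 3 fell in asap. As given above, the shares of all genes called higher and lower were 15.2% and 16.5% in sr45, 12.9% and 14.2% in sap18sr45, and 25.6% and 26.0% in asap. Median log2 fold changes were 0.07, 0.13 and 0.06. GAMMACA2 (AT1G47260), a carbonic anhydrase-like subunit of complex I, rose in asap by 0.51 ± 0.08 on the log2 scale, and SDH6 (AT1G08480), a subunit of succinate dehydrogenase, by 0.83 ± 0.10 (edgeR adjusted p = 1.32e-05 and 1.11e-07). COX19-2 (AT1G69750), of a family of cytochrome c oxidase assembly factors, fell in all 3 mutants, in sr45 by 2.19 ± 0.31 (edgeR adjusted p = 2.02e-06). Another list took in nuclear genes named in the annotation as mitochondrial transcription termination factors (mTERF), a mitochondrial RNA polymerase gene and genes of alternative respiration. The mTERF genes were taken by name, and the organelle that each serves was not checked. Of 16 tested genes of this list, 3 rose in sr45, 1 rose in sap18sr45, and 1 rose and 1 fell in asap, to be read against the same shares. RPOT1 (AT1G68990), a phage-type RNA polymerase that transcribes mitochondrial genes, rose in sr45 by 0.55 ± 0.20 on the log2 scale (edgeR adjusted p = 0.035), and its log2 fold change in asap was -0.05 ± 0.20.

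Root markers were higher in asap, whereas leaf markers went both ways. The 5 root markers were higher in asap in 5 of 5, and their summed level was 15.5 and 13.9 CPM in Col0, 43.4 and 35.1 in sap18sr45, and 226 and 201 in asap; 2 of them were at 0 in Col0 replicate 2. Of the 6 leaf markers, 3 were lower and 1 higher in asap, with a median log2 fold change of -0.27. The part of these marker differences in the higher level of AT2G07711 in asap was not tested. Flower markers reached at most 28 counts and seed storage markers at most 13 in a library.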

How the data were processed

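The authors quantified RNA from TruSeq stranded mRNA libraries with vast-tools against its Arabidopsis library (genome build TAIR10, per the labels). They deposited raw read counts per locus and cRPKM, an RPKM corrected for mappable positions. The table was read in part: 9998 loci of chromosome 1 and the start of chromosome 2. Later loci were not analysed. Also left out was 1 line naming no locus, with at most 0.00281% of a library's counts.

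The members and lists were chosen with earlier results of these data known, and loci were grouped by copied gene after their values were seen. The tests used edgeR 4.0.16 (R 4.3.3): filterByExpr left 5261 genes, TMM factors scaled the libraries, and a single quasi-likelihood fit took in all 8. Tests were 2-sided against Col0, with Benjamini-Hochberg adjustment over all genes tested and a threshold of 0.05. "Rose", "fell", "higher" and "lower" of a call refer to it. SEs came from the test. Sums were divided by unscaled library totals. Ratio intervals are exact conditional (Clopper-Pearson) 95% intervals; they, and floors of 3 counts, cover counting error only. Named were all tested members, untested ones with at least 10 counts in a library, MCM5 and SR45, and AT2G07671, which was chosen after its values were seen.

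The insertion was found with BLAST 2.17.0 (identity of at least 95%, length of at least 500 bases) in the RefSeq assembly TAIR10.1, which gave all coordinates and sequences; a locus with at least 50% of its bases matched counted as inside. All 134 members were found in it. The steps were tested on simulated data. Alternatives were DESeq2 1.42.0, other scalings, no filter, limma 3.58.1 on log2(cRPKM + 0.5) or log2(cRPKM + 0.1), the study's own rule, a replicate block and leaving out each library.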

Additional observations from a re-analysis of the deposited data

How the results depend on the processing

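No direction of a called member reversed under any alternative. The call of AT2G07711 in asap held in all 13 refits, with log2 fold changes from 1.98 to 2.37, and under the study's rule. The count of members higher in sr45, 5 in the report, was 3 with DESeq2, 2 with quantile normalization, 2 with only the 4 libraries compared, 2 and 3 with limma on log2(cRPKM + 0.5) and log2(cRPKM + 0.1), 0 under the study's rule, for which 0 members qualified, and between 0 and 9 with a library left out. The count lower was 1 with quantile normalization and with only 4 libraries (AT2G07715), and 0 to 1 with a library left out. For sap18sr45 the count higher, 1 in the report, was 4 with only 4 libraries, 0 with limma on log2(cRPKM + 0.5), 0 under the study's rule and 0 with any library left out. For asap the count higher, 2 in the report, was 1 with quantile normalization, with limma on log2(cRPKM + 0.5) and under the study's rule, and 1 to 3 with a library left out. The asap count was 3 with only the 4 libraries compared and with limma on log2(cRPKM + 0.1). The cause of these shifts was not tested, beyond the libraries named.

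Replicate numbers did not pair the libraries: deviations from the genotype means correlated between -0.03 and 0.04. With the replicate block, 6, 1 and 3 members were higher in sr45, sap18sr45 and asap.

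The members' mean share of counts, in percent, was 0.0196 in Col0, 0.0359 in sr45, 0.0243 in sap18sr45 and 0.0341 in asap. Without the member with most counts it was 0.0147 in Col0, 0.0184 in sap18sr45 and 0.0248 in asap. With only tested members it was 0.0172, 0.0207 and 0.0313, and with TMM-scaled totals 0.0203, 0.0246 and 0.0315. Of summed cRPKM it was 0.0255, 0.0302 and 0.0775. Inside the insertion only, an alternative chosen after seeing the data, it was 0.0137, 0.0192 and 0.0268. The sr45 mean moved by less than its replicate SD in all 5. That SD was 0.0243 on a mean of 0.0359, too wide for this to show that the mean is stable. The filter on low counts left 13 of 61 counted members; without it all 61 were tested, and 5, 1 and 2 were higher in sr45, sap18sr45 and asap.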
